A study of Arabidopsis thaliana with 9 samples.

Results

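The transcripts described here are 73 Affymetrix probe sets, of 22746 measured, whose signal was high in seedlings of the Arabidopsis thaliana accession C24, low in the accession Col, and above the Col level in their F1 hybrid. They were chosen from the deposited signals, with every value set to at least 10 and the AFFX control probe sets left out. The lowest C24 value had to be at least 50 and at least 2 times the highest Col value. The F1 position, which is 0 at the mean Col signal and 1 at the mean C24 signal, had to be 0.25 or more. Of 94 probe sets that met the first conditions, 73 met the last and 21 did not. The differences between C24 and Col and the place of F1 between them are therefore the choice itself and are given as a description, without a test.

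The F1 group held the hybrid of Col and C24, and the C24 and Col groups held its parents. Each had 3 biological replicates with 1 array each, from whole seedlings without roots at 10 DAS, grown at 22 degrees under a 16 h and 8 h photoperiod. The labels do not give the direction of the cross or say how many plants made up a sample. No transgene or treatment is named for any group. Replicate spread measures the difference between these samples, which may be partly technical, and in RNA of whole seedlings fewer cells of a type and less RNA per cell cannot be told apart. Within a group, array pairs had correlations of 0.944 to 0.971 across the 15922 probe sets that passed the brightness filter, and each array was scaled by the authors to a 2% trimmed mean of 150.01 to 150.02. Few tissue markers had a named probe set. RCA, the activase of the carbon-fixing enzyme Rubisco, had a mean signal of 5079 in F1, 6228 in C24 and 5961 in Col. The root hair gene EXPA7 had 10.6, 10 and 10.6, at or next to the floor of 10. Of 5 root genes with a named probe set 2 passed the filter, and these went in opposite directions. PYK10, a member by choice, was highest in C24. EXPA18 was lowest in C24, with 18.01, 10.6 and 20.1. For C24 against Col EXPA18 was not called (limma, adjusted p = 0.122) but had an unadjusted p under 0.05.

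In an F1 hybrid every nuclear gene is present as 1 copy from each parent. A gene that differs between the parents because of its own regulatory sequence is known to give an intermediate level in such a hybrid, while one that differs through a shared regulator can sit near either parent. C24 and Col are natural accessions known to differ in defence gene activity, in gene copies and in silenced genes. The array's probes were designed on the Col genome, so a signal higher in C24 is seen through probes made for the other parent.

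The set as a whole ran from near the floor to among the bright signals of the array. Mean F1 signals of the 73 had a median of 169 and ran from 23.7 to 4043. Mean C24 signals had a median of 269 and ran from 55.6 to 5909, and mean Col signals had a median of 47.2 and ran from 10 to 685. C24 was at 4.68 times Col at the median, with quartiles of 3.29 and 7.23. F1 was at 2.72 times Col at the median, with quartiles of 2.08 and 3.90, and at 0.587 times C24. In C24 29 members were under 4 times, 29 were 4 to 10 times and 15 were at least 10 times the Col mean. Col lay at the floor on all 3 arrays for 7 members and on 1 or 2 arrays for 12, so ratios to Col are lower bounds for all of these.

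**Figure D1:**
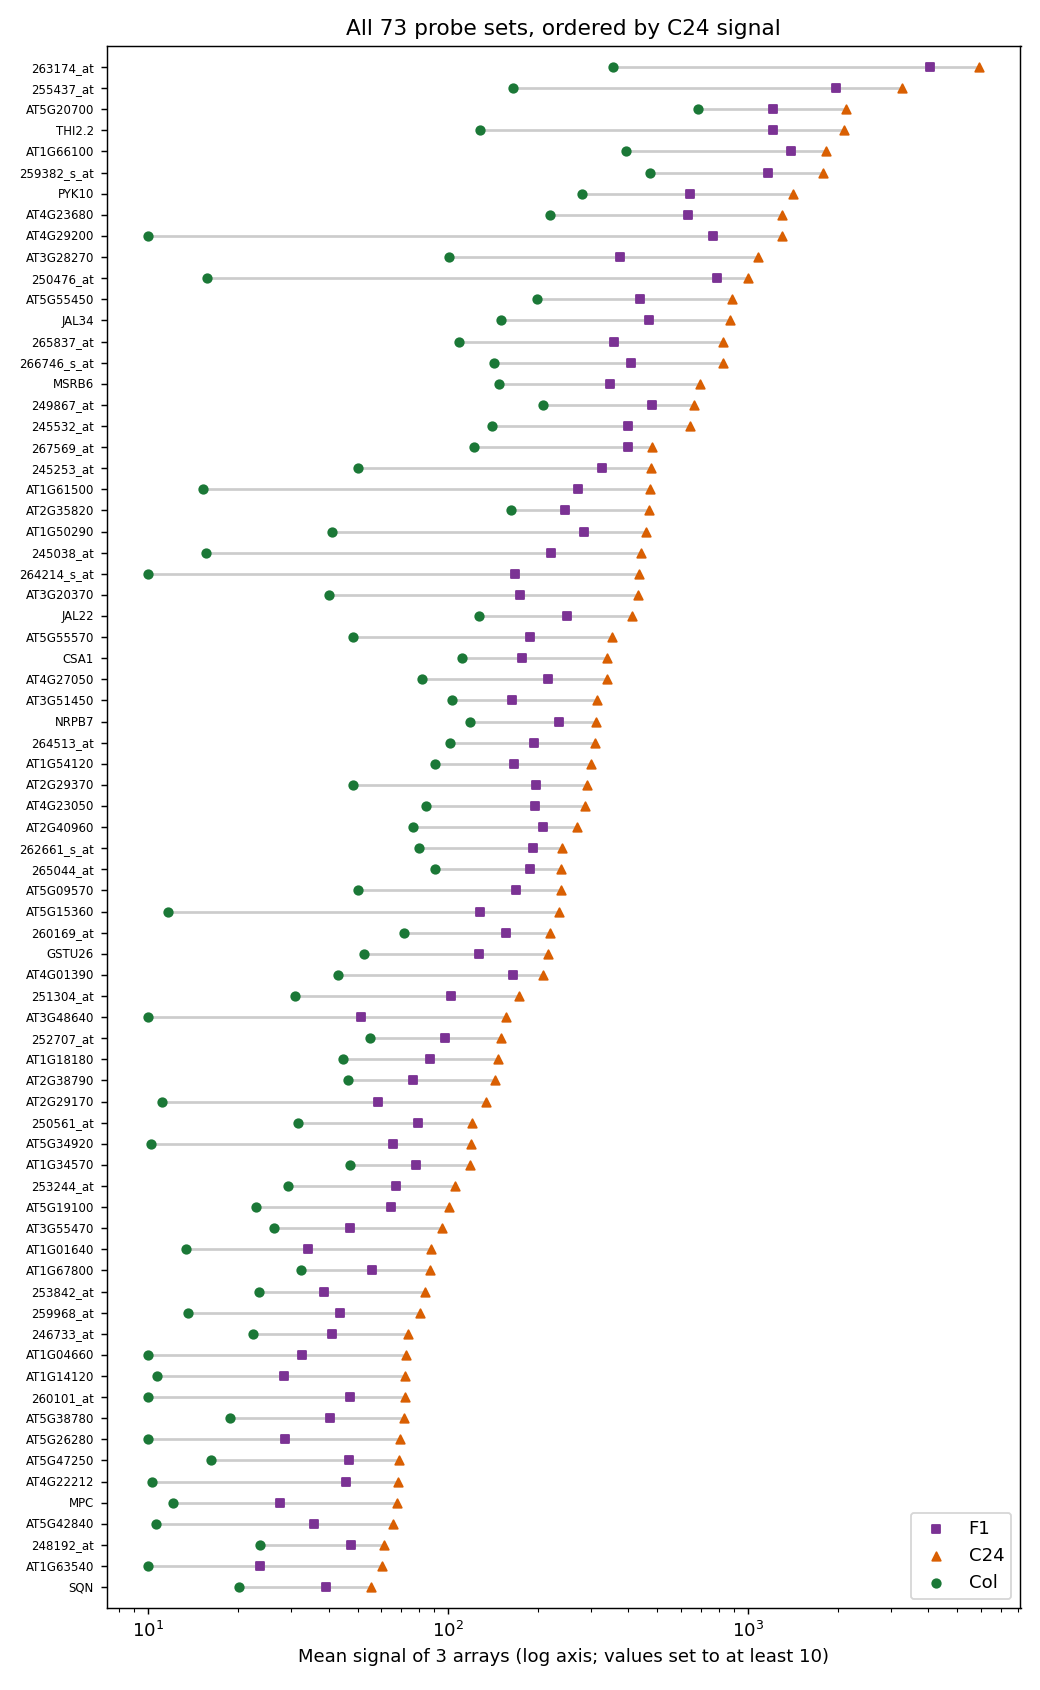
Mean signal of 3 arrays (x axis, log scale, linear signal units with values set to at least 10) in F1 (squares), C24 (triangles) and Col (circles) for each of the 73 probe sets (rows), ordered by C24 signal from 5909 at the top to 55.6 at the bottom. Grey lines join Col to C24, and each square lies between the 2 parents, as the choice requires at its lower side; probe sets that name no single gene carry their probe set ID.

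Of the 73, 48 could be tied to 1 gene and 2 to several genes, while 23 have no entry in the gene table used and are called by their probe set ID. All 48 matched a TAIR10.1 locus. By locus tag, 12 lay on chromosome 1, 7 on chromosome 2, 8 on chromosome 3, 7 on chromosome 4 and 14 on chromosome 5. These are 25%, 14.6%, 16.7%, 14.6% and 29.2%, against 25.8%, 16.5%, 20.5%, 14.7% and 22.5% of all named probe sets. Of the 48 genes 38 carried no symbol beyond the locus tag, 79.2% against 88.5% of all named probe sets. Only AT5G34920 was annotated as a pseudogene, and 6 of the 73 were of the s_at type, which can bind transcripts of several similar genes.

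The widest separation of the parents was at AT4G29200. It gave 800, 715 and 781 in F1 and 1290, 1283 and 1338 in C24, while all 3 Col arrays stood at the floor. The F1 mean of 765 ± 44.4 was at least 76.5 times the Col level, and the C24 mean of 1304 ± 30.4 at least 130.4 times (SD, n = 3). The arrays of the 3 groups did not overlap, and the spread within each group was small beside the gaps.

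AT1G61500 encodes a receptor-like kinase of the S-domain class, a family whose members sense extracellular signals. Its signals were 174, 308 and 334 in F1, 281, 548 and 590 in C24, and 18.4, 17.3 and 10 in Col. F1 was at least 17.8 times and C24 at least 31.1 times Col, 1 Col array being at the floor, and 2 of the 3 F1 arrays lay inside the C24 range. Of 14 genes of the same chromosomal group of S-domain kinases with a named probe set, 5 were bright enough to test. AT1G61500 was called higher in F1 and in C24 than in Col, but as a member it was chosen for these levels. Of the other 4, 0 were called in either comparison by limma, where 0.408% and 3.56% of all tested probe sets were called higher. At an unadjusted p under 0.05 there were 1 in F1 and 0 in C24, against 8.92% and 21.6% of all. Of these 4 kinases SD1-29 had 58.9 ± 1.42 in F1, 51.6 ± 11.9 in C24 and 55.7 ± 14.4 in Col. A further 9 of the 14 were too dim to test, most of them at the floor in every group. Probe sets of such similar genes can share transcripts.

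AT5G15360 had 114, 127 and 145 in F1 and 266, 206 and 232 in C24, and 14.9, 10 and 10 in Col. AT1G50290 had 259, 287 and 309 in F1, 391, 476 and 509 in C24, and 41.1, 42.2 and 39.6 in Col. The pseudogene AT5G34920 gave 58.7, 66.2 and 72.4 in F1, 109, 104 and 144 in C24, and 10, 10 and 10.6 in Col. In all of these the F1 lay above every Col array and below every C24 array, at positions of 0.52, 0.58 and 0.51.

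AT2G29170 and AT2G29370 lie in a run of short-chain dehydrogenase genes, enzymes that oxidise or reduce small molecules. AT2G29170 had 79.3, 52.1 and 44.4 in F1, 205, 107 and 90.2 in C24, and 10.9, 10 and 12.4 in Col. AT2G29370 had 234, 147 and 208 in F1, 377.5, 261 and 237 in C24, and 65.2, 45.1 and 34.6 in Col. The replicate 1 array was the highest in F1 and in C24 for both genes, and the positions differed, at 0.39 for the first and 0.61 for the second.

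Small secreted defence peptides were among the brightest members. THI2.2 encodes a thionin, a toxic peptide of plant defence, and gave 1435, 1405 and 797 in F1, 2364, 1873 and 2057 in C24, and 144, 99.1 and 141 in Col. AT1G66100, another thionin gene, gave 1464, 1832 and 882 in F1, 1676, 1661 and 2157 in C24, and 402, 362 and 411 in Col. F1 replicate 3 was the lowest F1 array for both thionins. THI2.2 was 9.48 times Col in F1 and 16.4 times in C24, and AT1G66100 3.56 and 4.68 times. For AT1G66100 1 F1 array lay within the C24 range. AT4G22212, a gene of a defensin-like peptide, was dim, with 57.9, 49.5 and 30.1 in F1, 61.5, 64.1 and 78.4 in C24, and 10, 10 and 11.02 in Col.

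**Figure D2:**
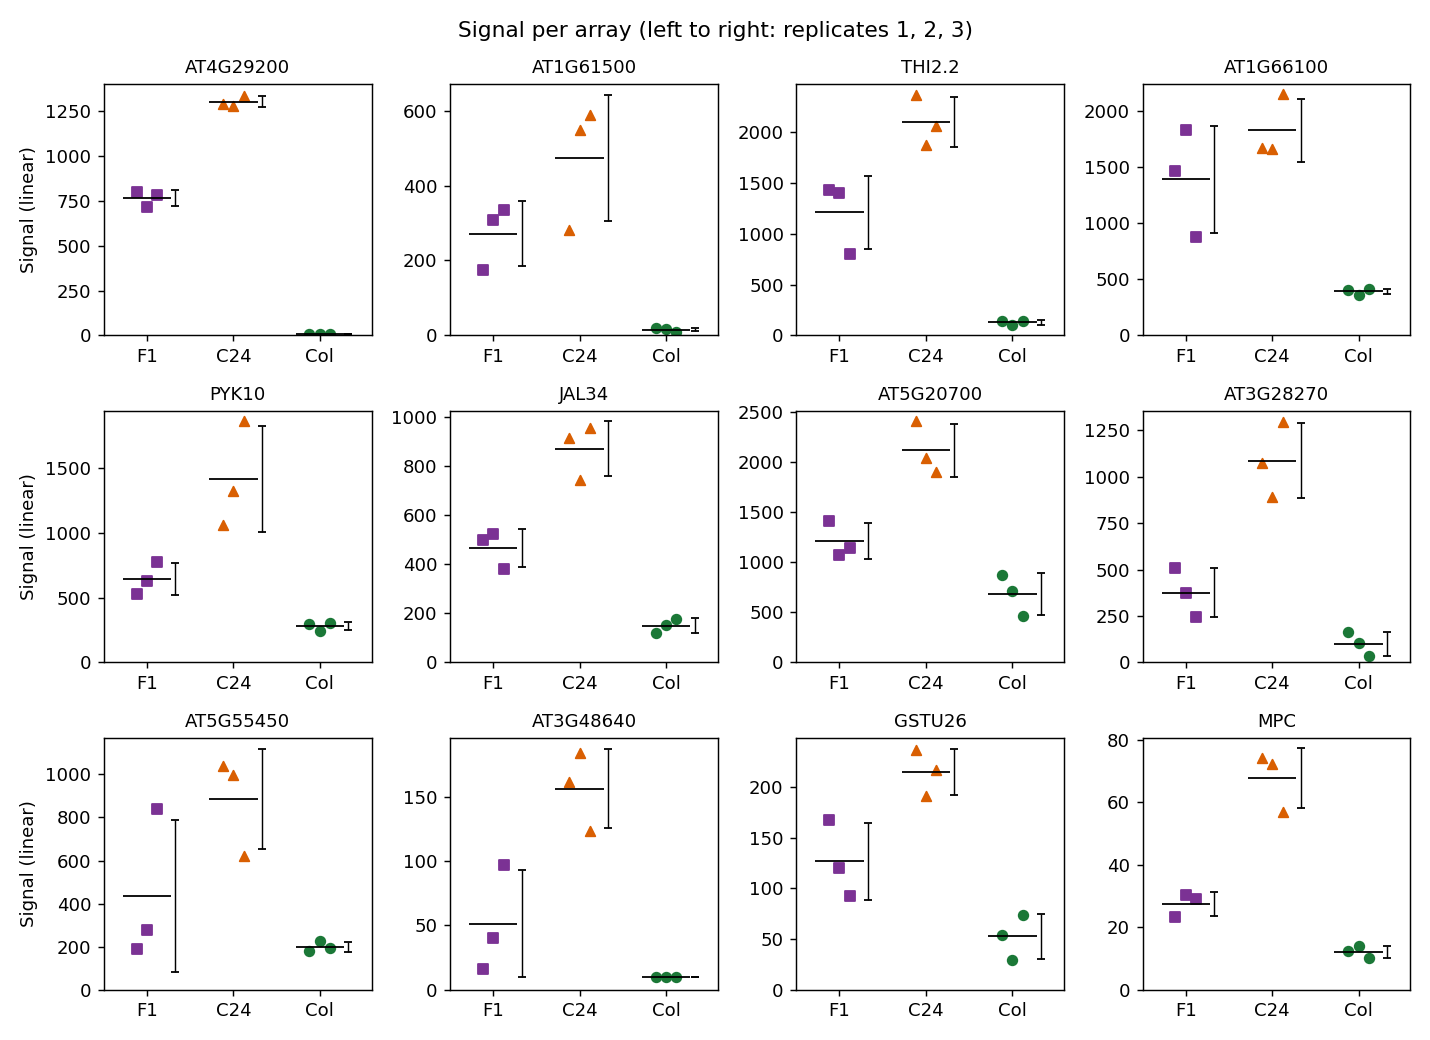
Signal per array (y axis, linear units from 0, values set to at least 10) for 12 named genes in F1, C24 and Col, with replicates 1, 2 and 3 from left to right, the mean as a line and the SD of 3 arrays as a bar at its right. AT4G29200 shows 3 tight groups that do not overlap, whereas the F1 arrays of AT5G55450 range from 190 to 840.1.

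PYK10, JAL34 and JAL22 belong to the ER body system, in which a beta-glucosidase stored in bodies of the endoplasmic reticulum acts with jacalin-related lectins once cells are broken. PYK10, the beta-glucosidase, had 529, 627 and 776 in F1, 1062, 1318 and 1857 in C24, and 293, 243 and 304 in Col. JAL34, a lectin, had 499, 523 and 381 in F1, 915, 744 and 955 in C24, and 119, 152 and 179 in Col. JAL22, another lectin, had 213, 264 and 271 in F1, 337, 428 and 472 in C24, and 121, 129 and 131 in Col. For all 3 genes the F1 arrays lay between the parents with no overlap, at positions of 0.32, 0.44 and 0.43. PYK10 is also known as a gene of roots. The root hair gene EXPA18 had 18.01 ± 4.66 in F1, 10.6 ± 1.11 in C24 and 20.1 ± 6.85 in Col, and whether root tissue has a part in the PYK10 values was not tested.

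The other genes of this system were then examined, from a list of 25 ER body and jacalin genes of which 12 had a named probe set and 9 passed the filter. In C24 7 of the 9 were called higher than Col and 0 lower, where 3.56% of all tested probe sets were called higher and 4.91% lower, but 3 of the 7 were members and JAL33 and AT1G52100 met the same C24 and Col limits, so these 5 were fixed by the choice. Of the 4 genes outside it 2 were called higher. In F1 3 were called higher than Col, where 0.408% of all were, and JAL34 and JAL22 among them were chosen for it, which leaves JAL33. The Col arrays of JAL33 also had to meet the limits of the choice, so its F1 call against them is not independent of it. JAL33, a lectin gene just outside the set, gave 381, 465 and 263 in F1, 1219, 1134 and 1392 in C24, and 74.3, 72.3 and 99.2 in Col. C24 lay above Col by 3.92 ± 0.24 on the log2 scale (SE), and F1 was higher than Col by 2.17 ± 0.24 (limma, adjusted p = 0.00426), a call that held whichever array was left out. AT1G52100, a jacalin lectin gene with a lower F1 position, lay above Col in C24 by 3.07 ± 0.29 on the log2 scale and was not called in F1 against Col (limma, adjusted p = 0.19). AT1G52000 (adjusted p = 0.0184) and NAI2 (adjusted p = 0.0486), which encodes an ER body protein, were also higher in C24, but the first lost its call without C24 replicate 3 (adjusted p = 0.0601) and the second without any one of 8 arrays (up to 0.171). NAI1, the transcription factor of ER body genes, had 36.1 ± 13.7 in F1, 43.4 ± 13.5 in C24 and 28.6 ± 11.7 in Col and was not called. Over the 4 genes outside the choice the median log2 difference was 0.52 for F1 minus Col and 0.94 for C24 minus Col, where over all tested probe sets it was 0.00 and 0.03. These comparisons share the Col arrays.

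**Figure D3:**
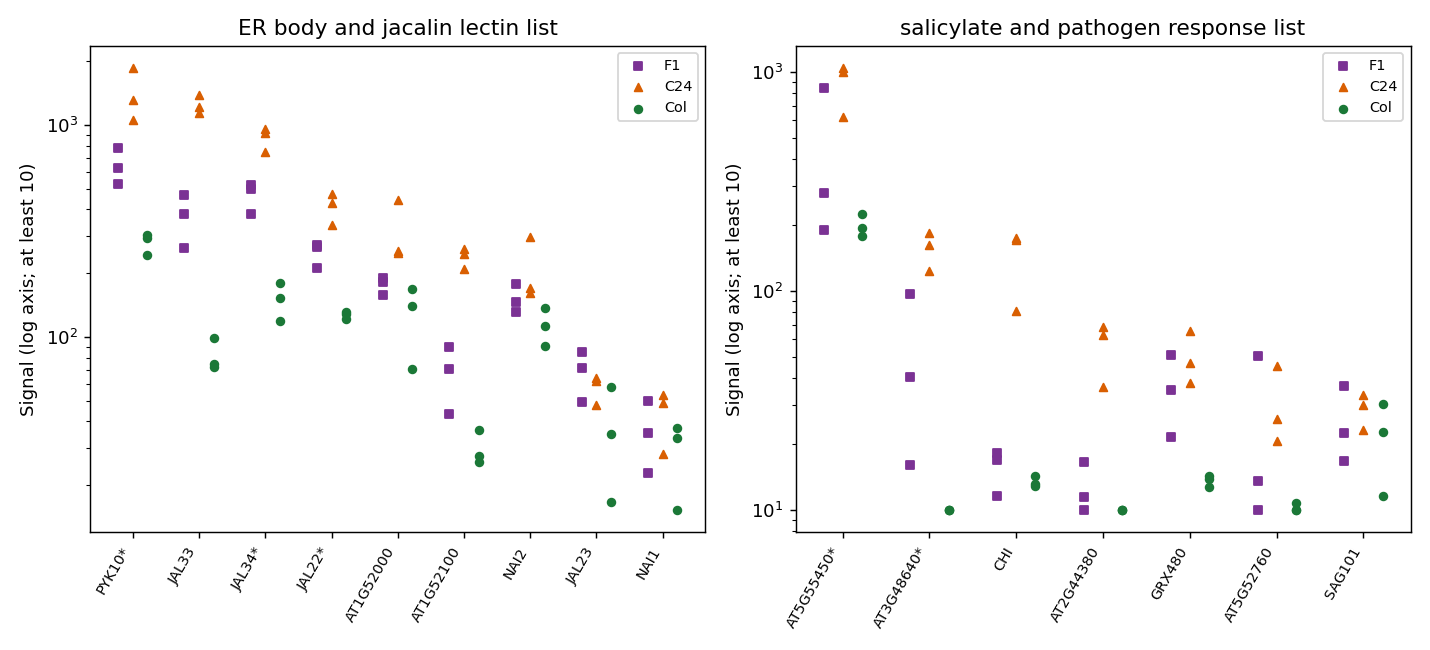
Signal per array (y axis, log scale, values set to at least 10) of the tested genes of the ER body and jacalin list (left) and of the salicylate and pathogen list (right), in F1 (squares), C24 (triangles) and Col (circles). An asterisk marks genes of the 73; PYK10, JAL34, JAL22 and JAL33 show F1 between the parents, while the chitinase gene CHI shows F1 beside Col.

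Of 40 salicylate and pathogen response genes, 7 were named and tested, and 2 of them were members. AT5G55450 encodes a lipid transfer protein and gave 190, 279 and 840.1 in F1, 1041, 997 and 620 in C24, and 178, 225 and 193 in Col. AT3G48640 gave 16.1, 40.5 and 96.9 in F1 and 162, 184 and 123 in C24, with all 3 Col arrays at the floor. In both genes F1 replicate 3 was the highest F1 array and C24 replicate 3 the lowest C24 array, and an F1 array of AT5G55450 lay inside the Col range. In C24 5 of the 7 were called higher than Col and 0 lower, where 3.56% of all tested probe sets were called higher and 4.91% lower. Those 2 members and the chitinase gene CHI were fixed by the choice of C24-high probe sets, and the others were the glutaredoxin gene GRX480 and AT2G44380. The 5 became 3 without C24 replicate 1 or 2. CHI, GRX480 and AT2G44380 kept their C24 call in every fit with 1 array left out that tested them. Such counts do not separate a lost call from a gene that fell under the brightness filter. In F1 AT3G48640 alone of the 7 was called higher than Col, where 0.408% of all tested probe sets were. As a member it was chosen for its F1 level. At an unadjusted p under 0.05 in F1 (limma) there were 3 of the 5 that are no members, against 8.92% of all. These were GRX480, AT2G44380 and AT5G52760. AT2G44380 had 11.5, 16.6 and 10 in F1 with all 3 Col arrays at the floor. AT5G52760 had 10, 13.6 and 50.2 in F1 and 10, 10.8 and 10 in Col. The fit used a floor of 1, so its differences for these 2 genes rest partly on values under 10. GRX480 had 21.5, 35.2 and 51.03 in F1, 46.7, 65.6 and 38.0 in C24, and 13.8, 12.7 and 14.3 in Col, and was higher in C24 by 1.95 ± 0.31 on the log2 scale (limma, adjusted p = 0.00338), with an adjusted p of 0.179 for F1 against Col. F1 replicate 3 was the highest F1 array for 6 of the 7 genes, against 5 of 9 ER body and jacalin genes, 2 of 8 glutathione transferase genes, 0 of 4 glucosinolate genes and 42.6% of the probe sets above the floor in all F1 arrays.

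Immune receptors were also present. CSA1, an NLR receptor gene of the TIR class, gave 139, 173 and 219 in F1, 299, 313 and 408 in C24, and 85.3, 124 and 125 in Col. AT5G47250, an NLR gene of the coiled-coil class, gave 46.8, 54.8 and 38.7 in F1, 74.7, 60.8 and 71.4 in C24, and 21.4, 17.4 and 10 in Col. F1 lay between the parents without overlap in both, at a position of 0.29 for CSA1 and 0.58 for AT5G47250.

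Members with a metabolic role covered several enzyme families. GSTU26, a glutathione transferase of the tau class, which joins glutathione to foreign compounds, gave 167, 121 and 92.4 in F1, 237, 192 and 217 in C24, and 54.3, 29.5 and 73.7 in Col. MSRB6, a methionine sulfoxide reductase that repairs oxidised proteins, gave 323, 433 and 283 in F1, 621, 576 and 881 in C24, and 114, 151 and 181 in Col. In both, all F1 arrays lay between those of the parents. AT3G51450, related to strictosidine synthases, had means of 164 in F1, 315 in C24 and 103 in Col. AT5G38780, of the methyltransferase family that methylates small acids, had 40.5, 71.4 and 18.8, and AT2G35820 had 246, 470 and 162, in the same order of groups. Of 8 tested glutathione transferase genes 3 were called higher in C24 and 0 in F1 against Col (limma), where 3.56% and 0.408% of all tested probe sets were. At an unadjusted p under 0.05 in F1 there were 2 of the 7 that are no members, against 8.92% of all. The 3 called higher in C24 than in Col were GSTU26, a member by choice, GSTU27 and GSTU20. GSTU27 was higher in C24 by 1.21 ± 0.22 on the log2 scale (limma, adjusted p = 0.00853). GSTU20 was higher in C24 by 0.37 ± 0.09 (adjusted p = 0.0378), a call that was lost without any one of 7 arrays (limma, adjusted p up to 0.124).

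None of the members came from 3 further lists. Over all tested probe sets 3.56% were called higher in C24 than in Col, 4.91% lower and 0.408% higher in F1 than in Col. Of 4 tested glucosinolate genes 2 were called higher in C24, BCAT4 and GSTU20, and 0 were called when any array other than Col replicate 1 or F1 replicate 3 was left out. GSTU20 is in both lists and was already counted above among the glutathione transferases. Of 4 tested flowering genes 1 was called, SNZ, with 52.7 ± 24.7 in F1, 85.04 ± 21.1 in C24 and 31.7 ± 15.5 in Col, a call that ended when Col replicate 2, Col replicate 3, F1 replicate 2 or a C24 array was left out. Of 3 tested iron uptake genes 0 were called by limma in either direction, and the smallest adjusted p for C24 against Col among them was 0.197, at AT1G47400. At an unadjusted p under 0.05 there was 1 of the 3, against 21.6% of all. In F1 against Col 0 genes of these lists were called by limma, with 1, 1 and 0 at an unadjusted p under 0.05 for glucosinolate, flowering and iron genes, against 8.92% of all. The glucosinolate gene among these was again GSTU20.

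Other bright members have no role given here beyond their family. AT5G20700 had the highest C24 signal of the named members, with 1416, 1075 and 1145 in F1, 2417, 2039 and 1903 in C24, and 875, 719 and 459.9 in Col. AT4G23680, of the major latex protein family, had 634, 628 and 631 in F1, 1228, 1471 and 1213 in C24, and 196, 168 and 296 in Col. AT3G28270 had 509.7, 375 and 244 in F1, 1076, 890.2 and 1293 in C24, and 163, 103 and 35.8 in Col. The F1 arrays of AT4G23680 differed little, while those of AT3G28270 differed 2.09-fold, and neither gene's F1 arrays overlapped with a parent. Genes of TRAF-like (MATH domain) proteins appeared at AT3G20370, AT4G01390 and AT5G26280. AT3G20370 averaged 174 in F1, 431 in C24 and 40.2 in Col, and AT5G26280 averaged 28.6 in F1 and 69.4 in C24 with Col at the floor. AT4G01390 had the highest position of the named members, 0.74, but its C24 arrays spanned 138 to 329 and 1 F1 array lay within that range.

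A few members act in the handling of RNA and proteins. NRPB7, a subunit of RNA polymerase II, gave 237, 252 and 214 in F1, 318, 283 and 332 in C24, and 138, 109.6 and 107 in Col. SQN, a cyclophilin that aids microRNA action, was the dimmest member in C24, with 54.4, 29.3 and 34.0 in F1, 53.4, 52.6 and 60.8 in C24, and 23.7, 18.7 and 17.9 in Col. MPC, known as an imprinted gene read from the maternal copy in the endosperm, gave 23.2, 30.3 and 28.9 in F1, 74.1, 72.2 and 56.8 in C24, and 12.2, 14.1 and 10 in Col. The F1 of MPC sat at a position of 0.28, nearer Col, and that of NRPB7 at 0.60.

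The 2 brightest members name no gene here. Probe set 263174_at had 4474, 4637 and 3017 in F1, 6259, 6632 and 4836 in C24, and 386, 390.3 and 289 in Col. Probe set 255437_at had 2212, 2305 and 1394 in F1, 3222, 3516 and 3060.0 in C24, and 275, 157 and 62.4 in Col. In both F1 replicate 3 was the lowest F1 array, as for the thionins. The next unnamed probe set, 259382_s_at, had 1011, 1177 and 1332 in F1, 1783, 1853 and 1732 in C24, and 640.2, 395 and 376 in Col, with F1 apart from both parents. Probe set 250476_at, at the highest position of all 73, 0.78, had 681, 821 and 864 in F1, 854, 1061 and 1087 in C24, and 22.4, 10 and 14.5 in Col. The probe set 264214_s_at, which names several genes, averaged 167 in F1 and 433 in C24, with all Col arrays at the floor.

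Within the set the F1 position had a median of 0.46, quartiles of 0.36 and 0.58, and a highest value of 0.78. It lay from 0.25 to under 0.4 for 26 members, from 0.4 to under 0.6 for 32 and at 0.6 or more for 15, and 33 were at 0.5 or above. Members whose C24 signal was under 4 times Col had a median position of 0.44, those at 4 to 10 times 0.46 and those at 10 times or more 0.52. The limit of 0.25 cut off lower positions in all 3 ranges, so these medians describe the members only. Of the 21 C24-high probe sets under that limit, 9 were under 4 times, 3 were 4 to 10 times and 9 were at least 10 times Col. Near the upper end AT2G40960 had 178, 223 and 223 in F1, 198, 279.7 and 329 in C24, and 90.5, 89.6 and 49.6 in Col. AT5G09570 had 153, 138 and 216 in F1, 278, 265 and 172 in C24, and 49.0, 41.1 and 60.5 in Col. The F1 reached into the C24 range in both, with 2 arrays in the first and 1 in the second, and the positions were 0.69 and 0.63. Near the lower end AT1G63540 had 21.5, 24.3 and 25.1 in F1 and 69.8, 60.4 and 51.04 in C24, with Col at the floor on all 3 arrays. AT2G35820 had 279, 218 and 241 in F1, 459, 471 and 482 in C24, and 156, 181 and 149 in Col. AT1G01640 had 27.1, 34.9 and 40.6 in F1, 59.3, 105 and 98.6 in C24, and 10.6, 10.2 and 19.4 in Col. In these 3 genes every F1 array lay between those of the parents, nearer Col. On the log2 scale the median of the same 73 positions was 0.67.

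**Figure D4:**
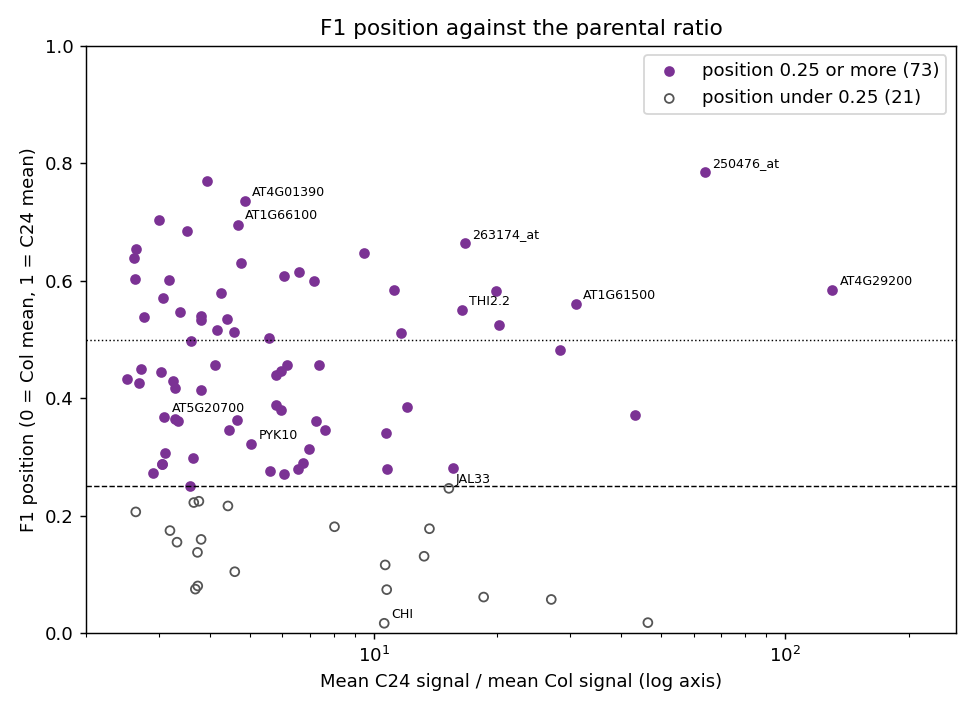
F1 position (y axis, 0 at the Col mean and 1 at the C24 mean) against the mean C24 signal over the mean Col signal (x axis, log scale) for the 73 members (filled) and the 21 other C24-high probe sets (open). The dashed line is the limit of 0.25 that chose the members and the dotted line is the midpoint. Positions of members ran from that limit up to 0.78.

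All 3 F1 arrays lay above all 3 Col arrays for 71 of the 73, where 5.04% of all 22746 probe sets did so. All 3 lay below all 3 C24 arrays for 56, where 5.9% of all did, and the same 56 were separate from both parents, where 0.923% of all were. For 15 members 1 F1 array and for 2 members 2 F1 arrays reached the lowest C24 array, and for 0 members did all 3. The members with an F1 array at or below a Col array were AT5G55450 and 265837_at. In the limma fit over all tested probe sets 43 of the 73 were called higher in F1 than in Col, where 0.408% of all were called, and 15 were called lower in F1 than in C24, where 0.377% were. The choice used these arrays, so these counts describe the members and add no evidence. Without C24 replicates 1, 2 and 3 the second count was 8, 4 and 2, without F1 replicates 1, 2 and 3 it was 1, 2 and 7, and without Col replicate 3 it was 24. The first count was 26 and 24 without F1 replicates 1 and 2. Against the mid-parent value 0 of the 73 were called by limma in either direction, where 0.00628% of all were called higher and 0.0314% lower. At an unadjusted p under 0.05 there were 8 of the 73, against 5.04% of all.

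The members differed in how closely the F1 arrays matched each other. The highest F1 array was 1.45 times the lowest at the median, at least 2 times for 9 members and at least 3 times for 5. In all 5 of these F1 replicate 3 was the highest. They were 265837_at (77.4, 105 and 893 in F1), AT3G48640, 245038_at (87.03, 180.5 and 395 in F1), AT5G55450 and AT1G04660 (18.8, 19.7 and 59.1 in F1). F1 replicate 3 was the highest F1 array for 34 of the 73 members, 46.6%, and for 42.6% of the 15679 probe sets above the floor in all F1 arrays, so this share was near that of the array as a whole. Without F1 replicate 3, AT5G55450 was at a position of 0.05, AT3G48640 at 0.13, AT1G04660 at 0.15 and 265837_at at -0.02, and 9 of the 73 no longer met the limit of 0.25. The other 5 were CSA1, AT3G55470, AT1G01640, 253842_at and 266746_s_at. JAL33 then met it, at 0.29, as did AT1G78450 and 2 unnamed probe sets.

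**Figure D5:**
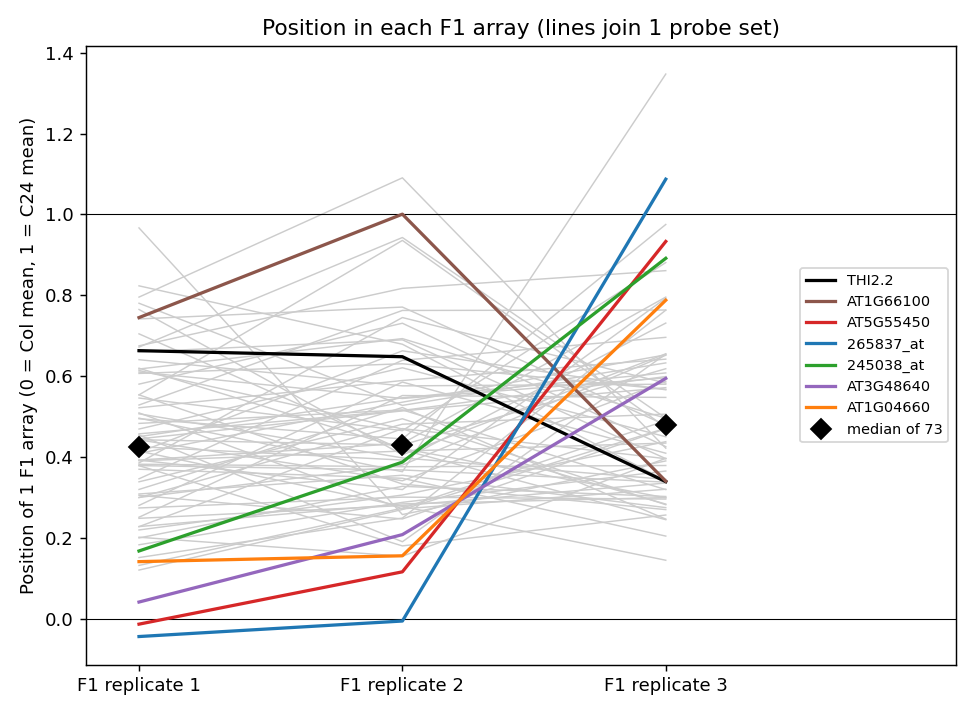
Position of each F1 array (y axis, 0 at the Col mean and 1 at the C24 mean) for the 73 members (grey lines, 1 per probe set), with the median of the 73 (diamonds) at 0.43, 0.43 and 0.48; the replicates have no order. Coloured lines mark the 5 members whose F1 replicate 3 was at least 3 times their lowest F1 array, and the thionin genes THI2.2 and AT1G66100, for which it was the lowest F1 array.

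The replicate number gave a comparison that the choice did not use. Replicate 1 was set against the mean of replicates 2 and 3 within the groups, since replicate 1 stood apart on these arrays. Of the 73 members 1 was called, lower in replicate 1, where 4.49% of all tested probe sets were called in either direction and 2.52% lower. It was the unnamed 245038_at, with 87.03, 180.5 and 395 in F1, 322, 509 and 491 in C24, and 10, 14.6 and 22.1 in Col. Replicate 1 was its lowest array in each group, by 1.28 ± 0.24 on the log2 scale (limma, adjusted p = 0.0204), a call that ended when Col replicate 1 (0.165), Col replicate 2 (0.0588), C24 replicate 2 (0.0596) or F1 replicate 1 (0.122) was left out. The named members nearest to a call in this comparison were AT2G29370 (limma, adjusted p = 0.0547), AT5G55570 (0.0816), CSA1 (0.101), AT2G29170 (0.143) and AT1G01640 (0.205). At an unadjusted p under 0.05 there were 11 of the 73, 15.1%, against 18.04% of all. The choice admits only probe sets whose C24 and Col arrays keep apart, which limits parental spread relative to the parental gap. A wide spread could still enter, and the SD of the C24 arrays reached 50.6% of their mean among the members.

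Genes next to the members on the chromosome, none of them a member, were also examined. Within 5 annotated genes on either side of the named members, 113 other probe sets were bright enough to test. Of these 6 were called higher in C24 than in Col, 5.31% against 3.56% of all tested, and 7 lower, 6.19% against 4.91%. In F1 against Col 1 was called higher, 0.885% against 0.408% of all tested. No named members lay within 30 kb of each other. JAL33, described above, stands next to JAL34. It was 1 of the 6 called higher in C24 and the 1 called higher in F1. Since it met the C24 and Col limits of the choice, its C24 call was fixed by them. The F1 call of JAL33 was made against Col arrays that met the same limits. MSRB5, of the same family as MSRB6 and separated from it by 1 gene, had 1397, 1265 and 1397 in F1, 1459, 1453 and 1294 in C24, and 947, 878 and 664 in Col, and was higher in C24 by 0.69 ± 0.15 on the log2 scale (limma, adjusted p = 0.022), a call lost without C24 replicate 1 or 2 (up to 0.0768). Some neighbours went the other way. AT2G29180, next to AT2G29170, had 491, 445 and 312 in F1, 219.9, 204 and 230.2 in C24, and 487, 503 and 487 in Col, lower in C24 by 1.16 ± 0.18 (limma, adjusted p = 0.00276). AT5G26270, separated from AT5G26280 by 1 gene, had 65.3, 86.7 and 48.6 in F1, 19.7, 21.1 and 13.4 in C24, and 45.8, 58.3 and 69.2 in Col (limma, adjusted p = 0.00893).

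The members nearest to the limits show what the choice turned on. The lowest C24 array was at 51.04 for AT1G63540, 51.8 for AT1G14120 and 52.6 for SQN just inside, and at 47.7 for AT1G65500, 46.9 for AT2G15042 and 45.4 for AT4G03610 just outside. The ratio of the lowest C24 to the highest Col value was 2.03 for AT2G38790 and 2.04 for both 250561_at and NRPB7 inside, and just under the limit for AT3G07510, 1.99 for AT3G60540 and 1.93 for AT1G71140 outside. The position was 0.25 for 253842_at and 0.27 for AT1G63540 and AT2G35820 inside, and 0.25 for JAL33 and 0.22 for AT1G78450 and 253829_at outside.

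The 21 C24-high probe sets with a position under 0.25 are the nearest to the members in kind. Their C24 to Col ratio had a median of 4.59, against 4.68 for the 73, and 9 of 21 were at least 10 times Col, against 15 of 73. The coefficient of variation of the 3 F1 arrays had a median of 23.1% in the 21, against 19.3% in the 73, and that of the C24 arrays 19.0% against 16.0%. Of the 21, 5 named 1 gene, among them CHI, at 15.6 ± 3.51 in F1, 142 ± 52.7 in C24 and 13.4 ± 0.764 in Col. All 21 had every F1 array below every C24 array, and 12 had every F1 array above every Col array. Since the position chose both sets, none of these differences was tested.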

How the data were processed

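Probe-set signals of 9 arrays (F1, C24 and Col, 3 each) were analysed. The deposited values are linear intensities. GCOS made them, per the submitters' processing notes. Its version is not given in the sources used here. No detection calls were used, so values under 10 were set to 10 and not ordered. Each array holds 22746 probe sets besides 64 controls. The number of arrays limits the precision.

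Calls came from limma 3.58.1 in R 4.3.3 (lmFit, then eBayes with a variance trend; p-values adjusted by Benjamini and Hochberg over all tested probe sets, threshold 0.05), fitted on log2 values after quantile normalization and a floor of 1. The dimmest probe sets, below the 30th percentile of mean log2 values or a signal of 11.1, were left out. This left 15922, which include all 73 members. Log2 differences with SE come from this fit, and signals, SDs and ratios from the deposited values. The mid-parent value was the linear mean of both parents.

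Genes were named through the platform annotation and TAIR10.1 locus tags. The annotation used holds no gene descriptions, so the planned sorting into gene families was not made. Roles are background knowledge. The members, the lists and the rule for named genes were chosen with earlier results of these data known. Named were the 8 members with the highest C24 signal, the 8 with the widest ratio, the 5 highest and 5 lowest positions, members in a list, neighbouring members, those next to a limit and up to 5 from the replicate comparison. MSRB6, NRPB7, AT5G47250, AT3G20370, AT5G26280 and other examples of a role were added after their values were seen, as were the neighbours within 5 genes.

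The fit was tested on simulated arrays with 15922 probe sets. For F1 against Col 60% of 2-fold and 90% of 4-fold changes were recovered with 7 false calls, and for the replicate comparison 63% and 92% with 8 false calls. Noise was drawn separately for each array, and changes were placed only in probe sets at or above the median brightness. The rates therefore do not cover dimmer members or deviations shared by arrays of the same replicate number.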

Additional observations from a re-analysis of the deposited data

How the results depend on the processing

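The set held 73 probe sets, 68 to 96 with any one array left out, 38 at a ratio of 3 and 33 at a position of 0.5. Its median position of 0.46 was 0.50 with a floor of 20 or a C24 minimum of 100, 0.67 on the log2 scale, and 0.45 to 0.51 with one array left out. Members called higher in F1 than in Col numbered 43, against 26 with no filter and 24 to 41 with one array left out. Members called lower in F1 than in C24 numbered 15, against 26 with a common median, 5 with no filter, 8 with the 50th percentile filter and 1 to 24 with one array left out. The replicate numbers were tried as a replicate block, which gave 25 such members and 50 higher in F1 than in Col. Same-numbered arrays deviated together at 0.455 to 0.494 for replicate 1, 0.013 to 0.148 for replicate 2 and 0.124 to 0.201 for replicate 3. All pairs were above 0, but one replicate 2 pair was under 0.1, and the main fit did not take the numbers to pair the samples. Any effect shared by a replicate number therefore stays in the spread of that fit. The replicate comparison called 1 member, against 2 with a common median, 0 with no filter, 2 with the 50th percentile filter and 0 to 2 with one array left out. The flowering count of 1 was 0 with the deposited scaling, no filter or the 50th percentile filter, 2 with a floor of 10, and 0 to 1 with one array left out. The glucosinolate count of 2 was 1 with the deposited scaling or a common median, 0 with no filter or no variance trend, and 0 to 2 with one array left out. The salicylate counts of 5 in C24 and 1 in F1 were 1 and 0 with the 50th percentile filter, the second was 0 with a floor of 10, and the first was 3 to 5 with one array left out. The 50th percentile filter left 53 of the 73 members to test, so its counts are over fewer genes. SNZ, CHI, GRX480, AT2G44380 and AT3G48640 did not lose a call under this filter but were too dim to be tested. The cause of the other differences was not tested. Without F1 replicate 3 the position of 265837_at was -0.02, against 0.35 with all arrays. With no detection calls, ratios to signals near 10 have no firm size.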
